A study of Homo sapiens with 12 samples.

Results

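The 8 genes described here encode ATP-binding cassette (ABC) exporters of drugs and conjugates: *ABCC1*, *ABCC2*, *ABCC3*, *ABCC4*, *ABCC5*, *ABCC10*, *ABCG2* and *ABCB1*. They were picked by name, and their rows were found by Ensembl identifier among the 57820 genes counted in each table. RNA was sequenced after rRNA depletion from AsPC-1, an established line of human pancreatic ductal adenocarcinoma, in 12 libraries that form 4 groups of 3. SiBACH1 cells were transfected with an siRNA, a short duplex that directs the breakdown of *BACH1* RNA. SiCont cells are the control group of that experiment, and both groups were harvested 24 h after transfection. SgBACH1 cells were infected with a lentivirus made with lentiCRISPR v2, which delivers Cas9 together with a guide to the *BACH1* gene. SgCont cells are their control group, and both groups were selected in 10 µg/ml puromycin. The series set out to look for genes under the control of BACH1, a heme-sensing repressor, in pancreatic cancer cells. The labels do not say whether the sgBACH1 cells are a clone or a pool, nor which duplex or guide the controls carried. The labels do not state that the replicates of a group came from separate cultures, and the p-values below rest on the spread among these libraries, part or all of which may be technical.

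ABC exporters use ATP to pump their substrates out across the cell membrane. Cells first attach glutathione, glucuronate or sulfate to many drugs, hormones and breakdown products, and the ABCC proteins, also called multidrug resistance-associated proteins (MRPs), carry such conjugates and glutathione itself. ABCG2 and ABCB1 accept many unconjugated drugs as well, and all 8 are known for their link to drug resistance in tumours. NRF2, the activator that competes with BACH1 for antioxidant response elements, is known to raise several of these genes in liver and in tumour cells.

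Libraries held 13099706 to 21478886 counts. *BACH1*, the targeted gene, stood at 24.9, 27.7 and 24.7 CPM (read counts adjusted for the size and composition of each library) in siBACH1, against 197, 294 and 197 CPM in siCont. It stood at 218, 198 and 185 CPM in sgBACH1, against 268, 294 and 276 CPM in sgCont. Both comparisons therefore carry lower *BACH1* RNA, with log2 fold changes of -3.15 ± 0.17 (SE) and -0.48 ± 0.08 (edgeR adjusted p = 4.09e-06 and 4.48e-05), and a gene count does not show whether the edited cells lack the protein. Control replicate 2 of the siRNA experiment stood apart: the chi-square per degree of freedom against its fellow replicates was 30.5 and 35.8, compared with 8.89 between the others. All 11 ductal and epithelial markers in the tables reached 1 CPM in every group, and no acinar, endocrine or hepatocyte marker did. Of these 11, 4 were higher and 2 lower in siBACH1, and 5 were higher and 5 lower in sgBACH1. Over all genes tested, edgeR called 23.9% in siBACH1 and 23.5% in sgBACH1. The 11 markers summed to 17024 to 17267 CPM in siBACH1, against 14422 to 16655 CPM in siCont. In the knockout experiment their sum was 15011 to 16295 CPM in sgBACH1, against 20721 to 22230 CPM in sgCont. Most of that sum came from the keratins *KRT8* and *KRT18*, and *KRT8* averaged 6922 ± 640 CPM in sgBACH1 and 10909 ± 421 CPM in sgCont (SD, n = 3 each). Of 7 fibroblast markers 1 or 2 reached 1 CPM, and none was without a count in any group. Nearly all of their summed CPM was *LUM*, the matrix protein lumican, which averaged 350 ± 10.7 CPM in siBACH1 and 299 ± 6.54 CPM in siCont, and 48.7 ± 3.34 CPM in sgBACH1 and 123 ± 12.2 CPM in sgCont. The sum over all 7 was 340.2 to 359.2 CPM in siBACH1, 296 to 307 CPM in siCont, 46.1 to 51.9 CPM in sgBACH1 and 115 to 139.6 CPM in sgCont. *COL1A1*, *COL1A2*, *COL3A1*, *DCN* and *PDGFRB* averaged at most 0.470 CPM in any group. Of 7 blood and endothelial markers *CD14* alone reached 1 CPM, at 0.818 ± 0.161 CPM in siBACH1 and 2.29 ± 0.411 CPM in siCont, and 3.41 ± 0.994 CPM in sgBACH1 and 1.40 ± 0.346 CPM in sgCont. It was lower in siBACH1 (edgeR adjusted p = 0.0122), did not pass in sgBACH1 (edgeR adjusted p = 0.0578), and its responses differed by 2.77 on the log2 scale (edgeR adjusted p = 0.00156). The part of these marker shifts in the results was not tested.

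With *BACH1* lowered, *ABCC2* rose in both experiments, to 2.68-fold in siBACH1 and to 5.33-fold in sgBACH1. *ABCG2* moved in opposite directions, falling in siBACH1 and rising in sgBACH1. *ABCC5* and *ABCC10* rose and *ABCC1* fell in siBACH1, and *ABCC4* fell in sgBACH1. In bulk RNA, fewer cells that carry a transcript and less of it per cell cannot be told apart. *ABCC3*, the member with the highest CPM, passed the test in neither experiment, and *ABCB1* was almost without counts. Of 7 members that had enough counts to be tested, 3 were higher and 2 lower in siBACH1 (71.4%), where edgeR called 23.9% of 14591 genes (10.9% higher and 13% lower). In sgBACH1, 2 were higher and 1 lower (42.9%), against 23.5% of 14469 genes (11.3% higher and 12.3% lower). The median log2 fold change of the 7 was 0.48 in siBACH1 and 0.12 in sgBACH1, and that of all genes tested was 0.005 and 0.0055. Without siCont replicate 2 the same 5 members were called in the siRNA experiment. By the libraries alone, the groups did not overlap for 6 of the 7 in the siRNA experiment (4 higher and 2 lower), against 42.5% of all genes tested (21.5% higher and 21% lower). They did not overlap for 4 of the 7 in the knockout (3 higher and 1 lower), against 36.5% of all genes tested (18.2% higher and 18.3% lower). The members were chosen with earlier results of these data known, so their shares are set beside those of all genes without a test.

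**Figure D1:**
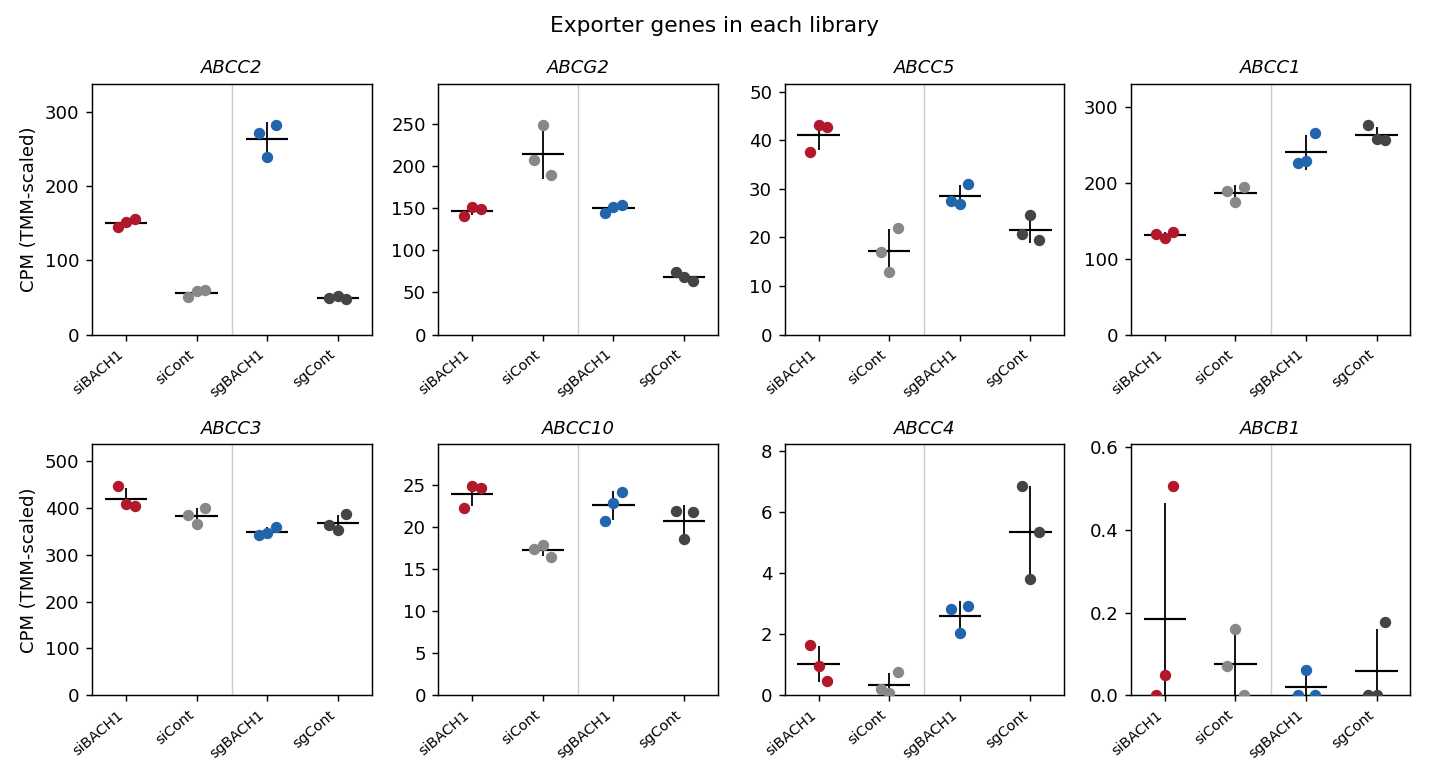
Level of each exporter gene in TMM-scaled CPM (vertical axis, from 0) in siBACH1, siCont, sgBACH1 and sgCont libraries. Points are libraries, the horizontal line is the mean and the vertical line the SD (n = 3). *ABCC2* is above its controls in both experiments, and *ABCG2* is below siCont but above sgCont.

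**Figure D2:**
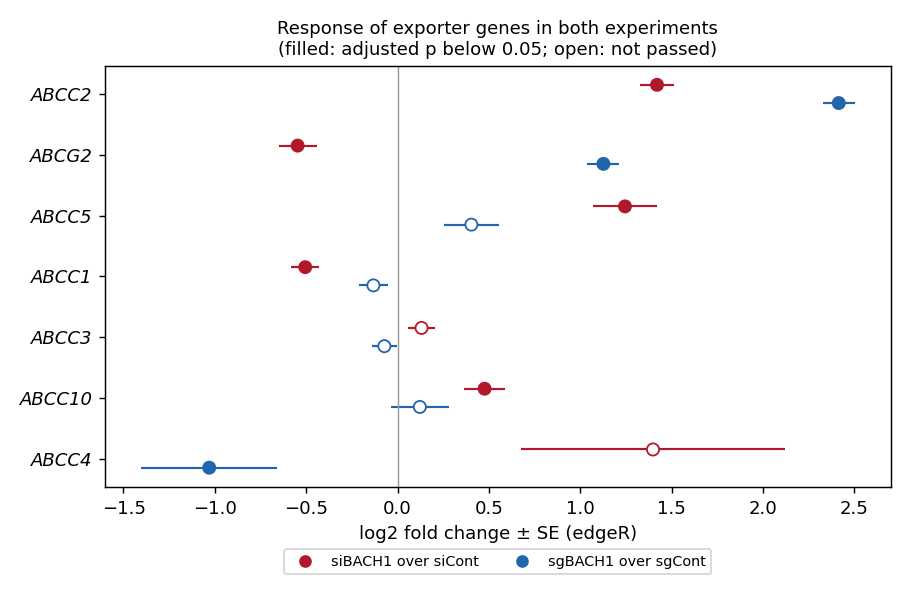
Log2 fold change (horizontal axis, ± SE, edgeR) of the 7 tested exporter genes for siBACH1 over siCont (red) and sgBACH1 over sgCont (blue). Filled points have an adjusted p below 0.05. Only *ABCC2* has filled points on the same side of 0 in both experiments.

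*ABCC2* encodes MRP2, which sits in the apical membrane and exports glutathione, glucuronide and sulfate conjugates, among them bilirubin glucuronide in liver. The gene spans chr10:99782640-99852594 on the plus strand (GRCh38, GENCODE 29). Its promoter window, from RefSeq on GRCh38.p14 (chr10:99782390-99782689, plus strand), is shown because *ABCC2* is the member that rose in both experiments. A match to TGANNNNGC, a loose pattern for the antioxidant response element core, is in capitals.

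*ABCC2* promoter: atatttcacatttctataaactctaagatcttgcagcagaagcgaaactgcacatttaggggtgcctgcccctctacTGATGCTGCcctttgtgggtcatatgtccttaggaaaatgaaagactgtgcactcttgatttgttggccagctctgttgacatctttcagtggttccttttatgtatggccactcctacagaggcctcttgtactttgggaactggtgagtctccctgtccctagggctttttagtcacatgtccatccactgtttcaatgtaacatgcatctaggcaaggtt

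The match begins at base -173 from the start site on the strand of the gene. Searched on both strands, TGANNNNGC occurs in 41.8% of 35116 RefSeq promoter windows of 300 bases, so a match of this kind is common. The stricter form TGACNNNGC, a subset of the first, is in 13.3% of windows and not in this one.

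*ABCC2* stood at 145, 152 and 156 CPM in siBACH1, against 50.6, 59.0 and 59.6 CPM in siCont. In the knockout experiment it stood at 272, 239 and 282 CPM in sgBACH1, against 49.3, 52.0 and 47.6 CPM in sgCont. Every siBACH1 and sgBACH1 library was above every control library, and the 6 controls lay between 47.6 and 59.6 CPM. The log2 fold change was 1.42 ± 0.09 (SE, n = 3 a group) in siBACH1 (edgeR adjusted p = 1.05e-05). It was 2.41 ± 0.09 in sgBACH1 (edgeR adjusted p = 3.47e-16). The response to the knockout exceeded that to the siRNA by 0.99 ± 0.12 on the log2 scale (edgeR adjusted p = 1.86e-05). *BACH1* RNA was lowered less in the knockout, but its level does not show how much BACH1 protein was left in either experiment.

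*ABCC3* encodes MRP3, which exports glucuronides and bile salts through the basolateral membrane (chr17:50634777-50692252, plus strand). It stood at 446, 409 and 404 CPM in siBACH1, against 384, 366 and 399.7 CPM in siCont. The siBACH1 libraries were the higher by a narrow margin, and the log2 fold change of 0.13 ± 0.07 did not pass the test (edgeR adjusted p = 0.237). With the knockout it stood at 342, 346 and 359.8 CPM in sgBACH1, against 363, 352 and 386 CPM in sgCont. Those groups overlapped, with a log2 fold change of -0.07 ± 0.07 (edgeR adjusted p = 0.517).

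*ABCC1* encodes MRP1, the exporter of leukotriene C4, oxidised glutathione and glutathione conjugates (chr16:15949577-16143074, plus strand). It stood at 132, 127 and 135 CPM in siBACH1, against 189.9, 175 and 195 CPM in siCont. All siBACH1 libraries were below all siCont libraries, and the log2 fold change was -0.51 ± 0.08 (edgeR adjusted p = 0.00153). With the knockout it stood at 226, 229 and 266 CPM in sgBACH1, against 276, 258 and 256 CPM in sgCont. SgBACH1 replicate 3 lay within the sgCont range, and the log2 fold change of -0.13 ± 0.08 did not pass the test (edgeR adjusted p = 0.249). The responses differed by 0.37 ± 0.11 (knockout minus siRNA, log2, edgeR adjusted p = 0.0262). This call was lost when siBACH1 replicate 1 or 2, siCont replicate 1 or 3, sgBACH1 replicate 3, or sgCont replicate 2 or 3 was left out (adjusted p between 0.0525 and 0.0930), and with no filter beyond 1 count (0.0610).

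*ABCC5* encodes MRP5, an exporter of cyclic nucleotides and of phosphorylated nucleoside analogues (chr3:183919934-184018015, minus strand). It stood at 37.6, 43.1 and 42.9 CPM in siBACH1, against 17.1, 12.9 and 21.9 CPM in siCont. The groups did not overlap, and siCont was the more spread of the pair. The log2 fold change was 1.24 ± 0.17 in siBACH1 (edgeR adjusted p = 0.000962), and 1.07 ± 0.12 without siCont replicate 2. With the knockout *ABCC5* stood at 27.5, 26.9 and 31.0 CPM in sgBACH1, against 20.7, 24.6 and 19.4 CPM in sgCont. Again the groups did not overlap, but the log2 fold change of 0.40 ± 0.15 missed the threshold (edgeR adjusted p = 0.0561). It passed without sgCont replicate 2 (edgeR adjusted p = 0.0224) and over all alternatives ranged from 0.0224 to 0.219. The knockout response was smaller than the siRNA response by a log2 difference of -0.85 ± 0.23 (edgeR adjusted p = 0.0115).

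*ABCC4* encodes MRP4, which carries cyclic nucleotides, prostaglandins and conjugated steroids (chr13:95019829-95301475, minus strand). It was close to the lower limit of these libraries, with 27, 19 and 10 counts in siBACH1, against 3, 1 and 13 in siCont. The groups overlapped, and the log2 fold change of 1.40 ± 0.72 did not pass the test (edgeR adjusted p = 0.198). With 1 library left out it ranged from 0.90 (without siBACH1 replicate 1) to 2.69 (without siCont replicate 3), and it passed in none of these fits (adjusted p between 0.0592 and 0.518). In the knockout experiment it stood at 2.84, 2.05 and 2.94 CPM in sgBACH1, against 6.86, 3.80 and 5.36 CPM in sgCont. SgBACH1 was below sgCont in every library, by -1.03 ± 0.37 on the log2 scale (edgeR adjusted p = 0.0479). This call kept little margin: it was lost without any 1 of the sgBACH1 libraries and without sgCont replicate 1 or 3 (adjusted p between 0.0820 and 0.196), and was kept without sgCont replicate 2 (0.0163). The difference of the responses was -2.44 ± 0.78 (log2, edgeR adjusted p = 0.0320). It ranged from -3.72 (without siCont replicate 3) to -1.93 (without siBACH1 replicate 1), and it passed in 4 of the 12 fits that left out 1 library. It was lost without siBACH1 replicate 1 or 2, siCont replicate 1 or 2, sgBACH1 replicate 1 or 2, or sgCont replicate 1 or 3.

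*ABCG2* encodes the breast cancer resistance protein, which works as a dimer and exports urate, porphyrins, sulfated steroids and many anticancer drugs (chr4:88090264-88231322, minus strand). RefSeq lists 5 promoter windows for it, and 4 hold TGANNNNGC, of which a pair overlap and share their match. The window at chr4:88159241-88159540 (GRCh38.p14, written 5′ to 3′ on the minus strand) is shown because it is the only one of the 5 that also holds TGACNNNGC. Both matches are in capitals, and the first of them reads TGATTGCGC on the opposite strand.

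*ABCG2* promoter: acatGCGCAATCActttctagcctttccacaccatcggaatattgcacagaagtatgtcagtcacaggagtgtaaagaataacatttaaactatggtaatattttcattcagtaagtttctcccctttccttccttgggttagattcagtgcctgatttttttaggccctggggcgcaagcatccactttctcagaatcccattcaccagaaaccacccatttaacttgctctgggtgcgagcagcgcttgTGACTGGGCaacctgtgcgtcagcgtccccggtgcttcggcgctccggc

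The match to the stricter form starts at base 2, counting the start site as base 1, and which start site AsPC-1 cells use was not determined. Of the 6 members with a RefSeq window, *ABCB1*, *ABCC2*, *ABCC4*, *ABCC10* and *ABCG2* held TGANNNNGC in at least 1 window, and *ABCC5* held none. Over all genes 47.1% of 27305 hold it. TGACNNNGC was found for *ABCC4*, *ABCC10* and *ABCG2*, against 16.1% of all genes. A gene counts if any of its windows matches, so genes with several windows, as *ABCB1*, *ABCC10* and *ABCG2* have, get more chances. The shares over all genes do not allow for the number of windows.

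*ABCG2* stood at 141, 151 and 149 CPM in siBACH1, against 207, 249 and 189.8 CPM in siCont. Each siBACH1 library was below each siCont library, and siCont replicate 2 was the highest. The log2 fold change was -0.55 ± 0.10 (edgeR adjusted p = 0.00487), and -0.44 ± 0.06 without siCont replicate 2 (edgeR adjusted p = 5.28e-06). In the knockout experiment *ABCG2* stood at 144, 152 and 154 CPM in sgBACH1, against 74.0, 68.1 and 64.2 CPM in sgCont. No library of either group came near the other group, and the log2 fold change was 1.13 ± 0.09, or 2.18-fold (edgeR adjusted p = 5.09e-10). The responses differed by 1.67 ± 0.13 (log2, edgeR adjusted p = 1.13e-07), the largest positive difference among the 7 tested members. SiBACH1 and sgBACH1 libraries were at about the same level, and it was the controls that stood apart, at 215 ± 30.2 CPM in siCont and 68.8 ± 4.97 CPM in sgCont (SD, n = 3 each). Levels of the experiments come from separate tables and are set side by side without a test.

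*ABCC10* encodes MRP7, known to carry taxanes and vinca alkaloids (chr6:43427366-43450430, plus strand). It stood at 22.4, 24.9 and 24.7 CPM in siBACH1, against 17.4, 17.9 and 16.5 CPM in siCont. The groups did not overlap, and the log2 fold change was 0.48 ± 0.11 (edgeR adjusted p = 0.0144). The call was lost without siBACH1 replicate 2 or 3 or without siCont replicate 3 (adjusted p = 0.0724, 0.0671 and 0.0505). In the knockout experiment it stood at 20.8, 23.0 and 24.2 CPM in sgBACH1, against 21.97, 18.7 and 21.8 CPM in sgCont. These groups overlapped, with a log2 fold change of 0.12 ± 0.16 (edgeR adjusted p = 0.656). Its exons share 79 of 8083 bases with *DLK2* on the opposite strand, and the sources used here do not say whether reads were counted by strand, so its count may hold a few reads of that gene.

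*ABCB1* encodes P-glycoprotein, the classical multidrug exporter (chr7:87503633-87713323, minus strand). It had 0, 1 and 11 counts in siBACH1, against 1, 2 and 0 in siCont. It had 0, 1 and 0 counts in sgBACH1, against 0, 0 and 3 in sgCont. Nearly all of its 12 counts in siBACH1 came from replicate 3, the gene did not pass the filter on low counts, and a difference was not detectable at this depth.

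Differences between the experiments were tested in 1 fit of all 12 libraries, where edgeR called 23.6% of 15644 genes. The way *BACH1* was lowered, the delivery, the puromycin selection and the control groups all differ together between the experiments. Their parts in a difference of responses cannot be told apart. Among the 7 tested members, *ABCC1*, *ABCC2* and *ABCG2* had a higher response in the knockout and *ABCC4* and *ABCC5* a lower one (71.4%). *ABCC3* had a difference of -0.21 ± 0.10 (edgeR adjusted p = 0.146) and *ABCC10* of -0.36 ± 0.18 (edgeR adjusted p = 0.167), which did not pass. Of the 5 that passed, *ABCC2*, *ABCC5* and *ABCG2* did so under all 20 alternatives, *ABCC1* under 12 and *ABCC4* under 10.

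Dividing CPM by the merged exon length puts the members on a common scale, CPM per kb, on which levels of different genes can be set side by side. The scale is approximate, since the lengths are from GENCODE 29 and the annotation used for counting is not named. In siBACH1 the order was *ABCC3* (43.7 ± 2.40 CPM per kb, SD), *ABCG2* (29.2 ± 1.01), *ABCC2* (19.2 ± 0.738) and *ABCC1* (17.4 ± 0.525), with no overlap between neighbours. In siCont it was *ABCG2* (42.6 ± 5.99 CPM per kb) and *ABCC3* (39.9 ± 1.74), which overlapped, then *ABCC1* (24.6 ± 1.34) and *ABCC2* (7.19 ± 0.644). *ABCC2* thus stood above *ABCC1* in every siBACH1 library and below it in every siCont library. In sgBACH1 *ABCC3* (36.3 ± 0.987 CPM per kb), *ABCC2* (33.7 ± 2.88), *ABCC1* (31.7 ± 2.98) and *ABCG2* (29.8 ± 1.01) each overlapped the next. In sgCont the order was *ABCC3* (38.2 ± 1.80 CPM per kb), *ABCC1* (34.8 ± 1.44), *ABCG2* (13.6 ± 0.985) and *ABCC2* (6.33 ± 0.286), without overlap. *ABCC5* and *ABCC10* lay between 1.51 and 3.60 CPM per kb on average in all groups, and they overlapped in sgBACH1 alone. *ABCC4* averaged at most 0.618 CPM per kb and *ABCB1* at most 0.0319, and these overlapped in siBACH1 and siCont.

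The summed level of the 8 members was 116 to 117 CPM per kb in siBACH1 and 116 to 121 in siCont, ranges that overlapped. It was 132 to 145 CPM per kb in sgBACH1 and 95.7 to 100.4 in sgCont. *ABCC2* made up 15.8% to 17.1% of that sum in siBACH1, against 5.55% to 6.52% in siCont. Its share was 23.1% to 25.9% in sgBACH1, against 6.20% to 6.93% in sgCont. The make-up of the exporter RNA thus differed between the groups of both experiments, and its sum separated the groups in the knockout alone. The share of *ABCG2* was 24.0% to 25.9% in siBACH1 and 32.3% to 40.6% in siCont, and 21.1% to 22.7% in sgBACH1 and 13.0% to 14.6% in sgCont. Shares depend on each other, since a rise of *ABCC2* alone lowers the share of the rest.

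**Figure D3:**
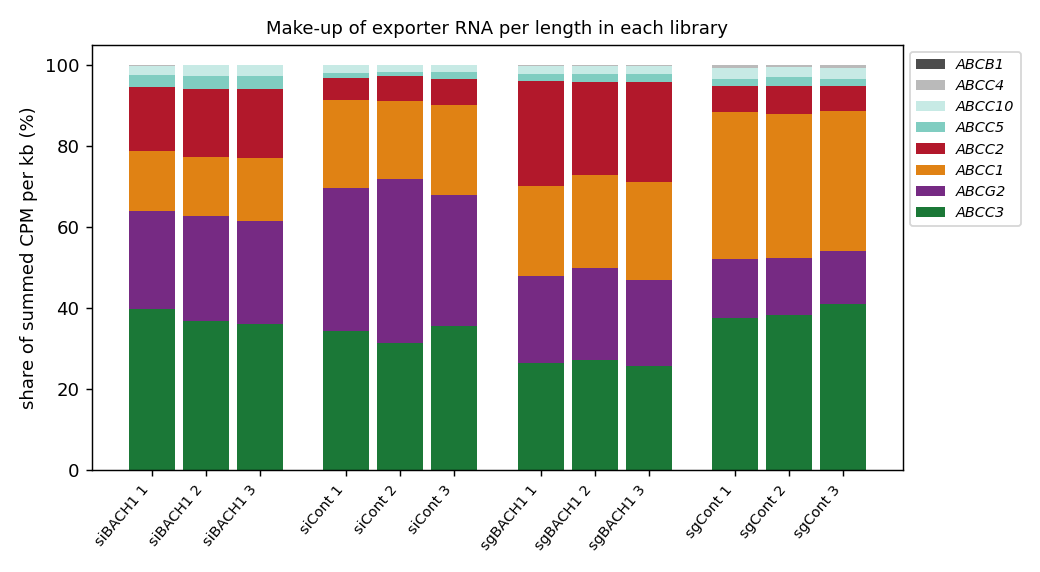
Share of each exporter gene (colours, vertical axis in percent) in the summed CPM per kb of the 8 genes, 1 bar per library. The *ABCC2* band takes 15.8% to 17.1% in siBACH1 and 23.1% to 25.9% in sgBACH1, against at most 6.93% in any control library.

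The 3′ untranslated regions (3′ UTRs) of the members were searched for AACATTA and ACATTAA, 7-base sequences that earlier results of these data had tied to genes lower in siBACH1. In GENCODE 29 protein-coding transcripts, *ABCG2* and *ABCC2* each held 1 match and the other 6 members held none. The sites are shown, with the match in capitals, because these are the exporters that moved most in the knockout, and only *ABCG2* went down with the siRNA.

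*ABCG2* site: ttttgataagcACATTAAagttaatagaa

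*ABCC2* site: gtttctagcacAACATTAtatcattaaaa

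Of tested genes with a 3′ UTR, 25.4% held a match in the siRNA experiment. The share was 55.2% among genes lower in siBACH1, 14% among genes higher and 21.2% among genes not called. Since the sequences were chosen from these same data for that tie, the excess among lower genes is no separate evidence. In the knockout the share was 24.2% among genes lower in sgBACH1 and 27.3% among genes higher. *ABCC1*, the other member that fell in siBACH1, has no match. Neither sequence shows a site in use, and the part of the matches in the falls was not tested.

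Each member was also set beside the 50 tested genes on either side of it on its chromosome. Over all genes tested, 10.9% were higher and 13% lower in siBACH1, and 11.3% higher and 12.3% lower in sgBACH1. In the knockout the 100 neighbours of *ABCC1* had a median log2 fold change of -0.41, with 51 lower and 4 higher. *ABCC1* itself, at -0.13, lay above that median. The neighbours of *ABCC5* had a median of -0.30 in the knockout, with 36 lower and 1 higher, while *ABCC5* stood at 0.40. Around the other members, *ABCB1* included, the median in the knockout lay between -0.06 and 0.07. The neighbours of *ABCC2* had medians of -0.01 in siBACH1 and 0.04 in sgBACH1, far from its own changes of 1.42 and 2.41. Around *ABCG2* the median was -0.12 in siBACH1, with 26 lower and 5 higher, and 0.03 in sgBACH1, with 11 lower and 10 higher. Around the other members the siBACH1 median lay between -0.10 (*ABCB1*) and 0.06 (*ABCC1*). There, 22 were lower and 6 higher around *ABCC5*, and 20 lower and 7 higher around *ABCC4*. Around *ABCC10* 10 were lower and 15 higher, and around *ABCC1* 10 lower and 11 higher. The part of these regional shifts in the members' levels was not tested.

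**Figure D4:**
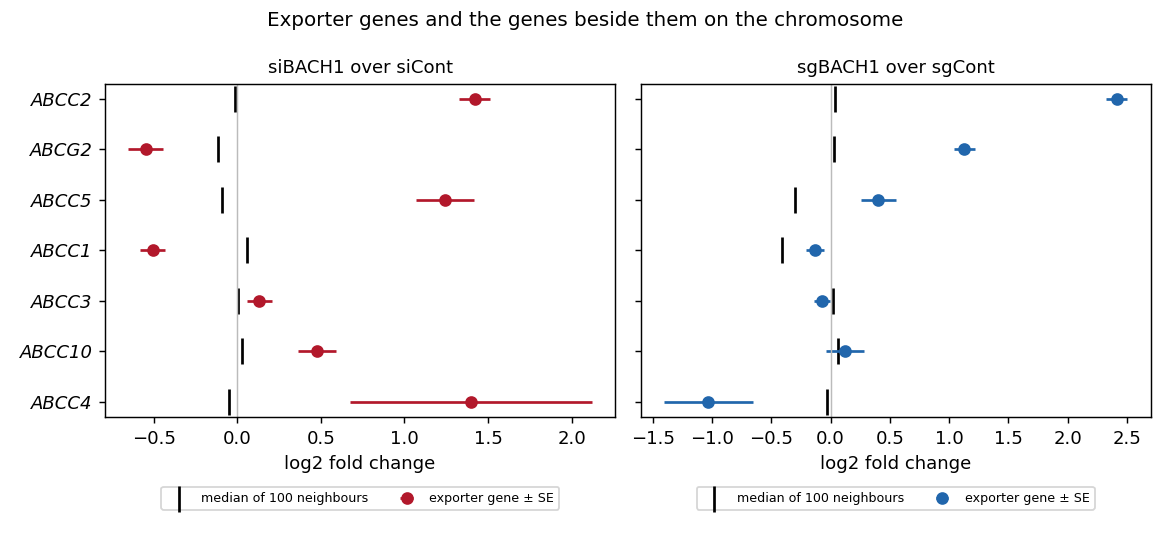
Log2 fold change (horizontal axis) of each tested exporter gene (point ± SE) and the median of its 100 neighbouring tested genes (black tick), for siBACH1 over siCont (left) and sgBACH1 over sgCont (right). The neighbours of *ABCC1* and *ABCC5* sit below 0 in the knockout, at -0.41 and -0.30, and those of *ABCC2* sit near 0 in both experiments.

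For each member called in either experiment, the 3 genes with the most similar pattern were taken from 11513 genes, by the root-mean-square (RMS) difference of centred log2 CPM over the 12 libraries, where a smaller value is closer. *ABCC2* was nearest to *FTH1* (RMS difference 0.276), the ferritin heavy chain, *ME1* (0.276), the cytosolic malic enzyme that makes NADPH, and the pseudogene *FTH1P11* (0.281), whose reads cannot be told from those of *FTH1* with certainty. *ME1* rose by 1.44 in siBACH1 and by 1.70 in sgBACH1 on the log2 scale (edgeR adjusted p = 3.47e-05 and 5.35e-09). *ABCG2* was nearest to *MPP1* (0.138), *PGK1* (0.162) and *SLC25A5* (0.164), which are all on chromosome X, whereas *ABCG2* is on chromosome 4. On chromosome X 152 of 469 tested genes were higher and 24 lower in sgBACH1, with a median log2 fold change of 0.35. In siBACH1 36 of 479 were higher and 57 lower, with a median of 0.01. Over all genes tested, 11.3% were higher and 12.3% lower in sgBACH1, and 10.9% higher and 13% lower in siBACH1. *ABCC1* was nearest to *DENND5A*, *PAICS* and *CYB561A3* (0.0902 to 0.0941), and *ABCC10* to *HIF1AN*, *TGIF1* and *TBC1D9B* (0.0659 to 0.0917). *ABCC5* was nearest to *NOL4L*, *LSM11* and *KLHL26* (0.178 to 0.210). The 3 nearest to *ABCC4* were *GALNT10*, *ARHGEF26* and *PTGER4* at 0.646 to 0.659. Its own RMS deviation over the libraries was 1.56, against 0.201 (*ABCC10*) to 1.01 (*ABCC2*) for the other called members. The distances are therefore not comparable between members. Levels were centred over both experiments, so a gap in level between the experiments counts in the distances beside the responses. *ABCC1*, for instance, averaged 131.5 CPM in siBACH1 and 187 in siCont, and 240 in sgBACH1 and 263 in sgCont.

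Of 40 genes for enzymes that make the conjugates or their precursors, 20 were tested in each experiment, of which 5 were higher and 0 lower in siBACH1, and 5 higher and 2 lower in sgBACH1, with medians of 0.23 and 0.18. The share called in siBACH1 was close to the 23.9% of all genes tested (10.9% higher and 13% lower), and in sgBACH1 the share of all genes was 23.5% (11.3% higher and 12.3% lower). No listed enzyme was lower in siBACH1 at an unadjusted edgeR p below 0.05, by DESeq2 or by limma-voom either. *GCLM*, the modifier subunit of the enzyme that starts glutathione synthesis, averaged 121 ± 11.0 CPM in siBACH1 and 19.4 ± 3.47 in siCont, and 119 ± 1.76 in sgBACH1 and 9.96 ± 3.49 in sgCont (SD, n = 3 each). Its log2 fold changes were 2.64 and 3.60 (edgeR adjusted p = 3.81e-06 and 1.18e-14). *GCLC*, the catalytic subunit, rose by 1.52 and 1.24 (edgeR adjusted p = 3.73e-06 and 1.13e-10). *UGDH*, which makes UDP-glucuronate for glucuronidation, rose by 0.98 and 0.88 (edgeR adjusted p = 2.19e-05 and 5.17e-09). The sulfotransferase *SULT2B1* rose in sgBACH1 by 2.25 (edgeR adjusted p = 3.36e-07) and stood at 0.20 in siBACH1 (edgeR adjusted p = 0.281). *UGT1A10* rose in siBACH1 by 1.08 (edgeR adjusted p = 0.00038) and stood at -0.12 in sgBACH1, but it shares exons with the other *UGT1A* genes and its count is uncertain. *UGT8*, which makes galactosylceramide, rose by 0.45 in siBACH1 and fell by 0.58 in sgBACH1 (edgeR adjusted p = 0.00904 and 0.00322), and the siRNA call was lost without siBACH1 replicate 3 (0.0528).

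Of 28 transcription factors and partners known to act on exporter genes, 25 were tested. In siBACH1 8 were higher and 5 lower, and in sgBACH1 7 were higher and 6 lower, with medians of -0.05 and 0.09. Over all genes tested, 23.9% were called in siBACH1 and 23.5% in sgBACH1. *HNF4A*, a hepatic and intestinal nuclear receptor, rose by 0.57 in siBACH1 and by 1.14 in sgBACH1 (edgeR adjusted p = 0.00638 and 6.93e-11). *PPARA*, the fatty acid receptor, rose by 0.93 and 0.62 (edgeR adjusted p = 0.000464 and 0.000112), and *RXRA*, the partner of many nuclear receptors, by 0.48 and 0.89 (edgeR adjusted p = 0.00477 and 1.84e-07). *MAFG*, a small MAF protein that pairs with BACH1 or NRF2 on DNA, rose by 0.48 and 0.39 (edgeR adjusted p = 0.0121 and 0.0205). That call was lost without siBACH1 replicate 1 or 3 or siCont replicate 1 in the siRNA experiment, and without sgBACH1 replicate 1, 2 or 3 or sgCont replicate 1 in the knockout (adjusted p between 0.0509 and 0.0933). *NR1I2*, the xenobiotic receptor PXR, averaged 30.3 ± 1.61 CPM in sgBACH1 and 14.3 ± 3.20 in sgCont, a log2 fold change of 1.08 (edgeR adjusted p = 3.55e-05). In siBACH1 *NR1I2* stood at -0.34 (edgeR adjusted p = 0.0552). *NFE2L2*, which encodes NRF2 and was named after its values were seen, stood at -0.12 in siBACH1 (edgeR adjusted p = 0.607) and rose by 0.45 in sgBACH1 (edgeR adjusted p = 0.000265). *MAFF* fell by 0.97 in sgBACH1 (edgeR adjusted p = 3.56e-05). *FOXO1* fell by 0.60 in siBACH1 and by 0.42 in sgBACH1 (edgeR adjusted p = 0.00452 and 0.00457), and *NR3C1*, the glucocorticoid receptor, by 0.40 and 0.28 (edgeR adjusted p = 0.048 and 0.02). The *NR3C1* calls were lost without any 1 of the siBACH1 libraries and without sgBACH1 replicate 2 or 3 (adjusted p between 0.0604 and 0.172). With upper quartile scaling the siRNA call of *NR3C1* was lost as well (0.0547), and in 1 fit of all 12 libraries the knockout call (0.0748).

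Of 11 genes for proteins that anchor exporters in the membrane or bring them there, 10 were tested. In these, 1 was higher and 2 lower in siBACH1, and 3 were higher and 3 lower in sgBACH1, with medians of -0.03 and 0.05. The shares called over all genes tested were 23.9% and 23.5%. *EZR*, the ezrin linker between membrane proteins and actin, fell by 0.68 in siBACH1 and by 0.34 in sgBACH1 (edgeR adjusted p = 0.0209 and 0.000201), and the siRNA call was lost without any 1 of the siBACH1 libraries (0.0725 to 0.0874) and the knockout call in 1 fit of all 12 libraries (0.0764). *RDX*, the related radixin that anchors MRP2 in mouse liver, averaged 46.8 ± 4.16 CPM in siBACH1 and 101 ± 9.30 in siCont. Its log2 fold change was -1.11 in siBACH1 (edgeR adjusted p = 9.75e-05) and -0.04 in sgBACH1 (edgeR adjusted p = 0.841). *CAV1*, caveolin 1, averaged 129 ± 9.38 CPM in sgBACH1 and 359.6 ± 11.4 in sgCont, a log2 fold change of -1.48 (edgeR adjusted p = 3.05e-13). The scaffold *NHERF1* rose by 0.47 and its relative *NHERF2* fell by 0.52 in sgBACH1 (edgeR adjusted p = 0.000155 and 0.000152). *STX3*, a syntaxin of apical membrane traffic, rose by 0.85 in siBACH1 (edgeR adjusted p = 0.00012) and stood at 0.08 in sgBACH1.

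Among other ABC transporters, the 13 listed at the cell surface mostly had too few counts, and none of the 5 tested in the siRNA experiment and none of the 2 tested in the knockout was called by edgeR. At an unadjusted edgeR p below 0.05 there was 1 in each experiment, and by DESeq2 and limma-voom 0. The difference of the responses was called for 1 of 5, *ABCG1*, a cholesterol exporter, at 1.06 ± 0.33 on the log2 scale (edgeR adjusted p = 0.0260). *ABCG1* averaged 22.7 ± 2.18 CPM in siBACH1 and 35.1 ± 17.1 CPM in siCont, and 19.8 ± 1.83 CPM in sgBACH1 and 14.5 ± 2.06 CPM in sgCont (SD, n = 3 each). That call was lost without siBACH1 replicate 1 or 3, sgBACH1 replicate 2, or sgCont replicate 1 or 3 (0.0535 to 0.0698). Of 11 transporters of organelles, 10 were tested, with 1 higher and 1 lower in siBACH1 and 3 higher and 1 lower in sgBACH1. For these lists too, the shares over all genes tested were 23.9% in siBACH1 and 23.5% in sgBACH1. *ABCB6*, a porphyrin transporter, rose by 1.62 in siBACH1 (edgeR adjusted p = 0.0173) and stood at 1.68 in sgBACH1 (edgeR adjusted p = 0.0572). The siRNA call of *ABCB6* was lost without siBACH1 replicate 2 (0.0828) or siCont replicate 1 (0.0604). *ABCD3*, which takes fatty acids into peroxisomes, rose by 0.53 in sgBACH1 (edgeR adjusted p = 9.45e-05). The ABCA family moved both ways, with 2 higher and 2 lower of 8 tested in siBACH1 and 2 higher and 3 lower of 7 tested in sgBACH1. *ABCA3*, a phospholipid transporter, rose by 1.02 in siBACH1 and by 1.09 in sgBACH1 (edgeR adjusted p = 0.00242 and 4.71e-06). *ABCA1*, which exports cholesterol, averaged 3.37 ± 1.35 CPM in sgBACH1 and 14.3 ± 2.32 in sgCont (edgeR adjusted p = 6.12e-06). *ABCA13* fell in both experiments, to 3.60 ± 0.765 CPM in siBACH1, against 6.18 ± 0.737 in siCont, and to 3.63 ± 0.993 in sgBACH1, against 16.8 ± 4.84 in sgCont (edgeR adjusted p = 0.0366 and 1.00e-06). Its siRNA call was kept without siCont replicate 2 and lost without any other library of that experiment (0.0567 to 0.12). *ABCA10*, which was near the lower limit, averaged 0.475 ± 0.546 CPM in siBACH1 and 2.65 ± 0.472 in siCont, and 0.535 ± 0.270 in sgBACH1 and 2.23 ± 1.16 in sgCont (edgeR adjusted p = 0.0214 and 0.0221). Leaving out siBACH1 replicate 1 or 3, siCont replicate 1, sgBACH1 replicate 2 or 3, or sgCont replicate 1 ended its calls (0.066 to 0.173).

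Carriers that take organic ions and nucleosides into cells were listed as the counterpart of the exporters. Of 28, 10 were tested in the siRNA experiment, with 2 higher and 1 lower, and 11 in the knockout, with 3 higher and 1 lower. Among all genes tested 23.9% were called in siBACH1 and 23.5% in sgBACH1. *SLC22A3*, an organic cation carrier, fell by 0.96 in siBACH1 (edgeR adjusted p = 0.000225). *SLCO2B1*, an organic anion carrier, averaged 7.91 ± 2.09 CPM in sgBACH1 and 1.79 ± 1.09 in sgCont, a log2 fold change of 2.16 (edgeR adjusted p = 0.000505). *SLC22A18* rose by 1.30 in sgBACH1 (edgeR adjusted p = 8.00e-07). *SLC29A1* and *SLC29A2*, carriers of nucleosides and nucleoside drugs, rose by 0.59 and 0.65 in siBACH1 (edgeR adjusted p = 0.0442 and 0.00398). The *SLC29A1* call was lost without any 1 of the siBACH1 libraries or without siCont replicate 3 (0.0501 to 0.166).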

How the data were processed

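Each experiment has 1 deposited table of unnormalised gene counts, which were used as they are. HTSeq 0.9.1, SAMtools and hg19 are named in the submitters' processing notes, and the sources used here name neither the aligner, the authors' annotation nor a strand setting. Per the labels' protocols, fragmented RNA was made into Ion Total RNA-seq libraries and read on an Ion Proton. Of 57820 identifiers 51996 took a current symbol. Genes were filtered with filterByExpr (minimum count 10), scaled by TMM and tested with the two-sided quasi-likelihood test of edgeR 4.0.16 in R 4.3.3, 3 libraries against 3. P-values were adjusted by Benjamini-Hochberg over all genes tested and called below 0.05. The standard error is the log2 fold change divided by the square root of F. The difference of responses is (sgBACH1 minus sgCont) minus (siBACH1 minus siCont), fitted on 12 libraries with 4 group means. CPM are TMM-scaled within an experiment, and exon lengths and gene places come from the reference annotation GENCODE 29 on GRCh38. No hg19 coordinates were used, but CPM per kb divides the deposited counts by these lengths, which may differ from those of the authors' annotation. Promoters are RefSeq windows on GRCh38.p14. Counts were simulated for 14313, 14116 and 15219 genes (siRNA, knockout and difference), of which 58, 58 and 63 were changed 2-fold. Of these, 69.0%, 67.2% and 42.9% were recovered, and 9.16%, 4.08% and 4.30% of all calls were false. Of genes changed 1.5-fold 31.7%, 54.9% and 15.9% were recovered, and of those changed 4-fold 88.3%, 88.7% and 75%. Far fewer genes were changed there than were called in these data, so these shares need not carry over.

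Members and lists were chosen with earlier results of these data known. Named are *BACH1*, the 8 members, from each list up to 4 genes with the largest called change in a comparison or called in both, and the 3 nearest patterns of each called member among genes of mean log2 CPM 1 or more. Other scalings, filters, DESeq2 1.42.0, limma-voom (limma 3.58.1), a replicate block, 1 fit of all libraries and leaving out each library were tried. A comparison of the protein sequences was not made.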

Additional observations from a re-analysis of the deposited data

Results flagged for a closer look

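The response to the knockout differed from the response to the siRNA for the following genes, by edgeR's test of the difference in 1 fit of 12 libraries. Since delivery, selection and control groups also differ between the experiments, a difference cannot be assigned to the way *BACH1* was lowered. Differences are knockout minus siRNA on the log2 scale, each with an adjusted p below 0.05. Among the exporters they were 0.37 for *ABCC1*, 0.99 for *ABCC2*, -2.44 for *ABCC4*, -0.85 for *ABCC5* and 1.67 for *ABCG2*. *BACH1* itself differed by 2.66, since its RNA was lowered less in the knockout. Only *ABCG2* among the exporters was called in both experiments with opposite signs.

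Among other transporters the difference was 0.53 for *ABCD3*, -1.42 for *ABCA13* and -0.49 for *ABCA7*. The *ABCA7* difference (edgeR adjusted p = 0.0347) was lost in most fits that left out 1 library, namely without any 1 of the siBACH1 or sgBACH1 libraries, siCont replicate 3 or sgCont replicate 3 (0.0509 to 0.0965), and with no filter beyond 1 count (0.152). Among conjugating enzymes it was 0.95 for *GCLM*, 2.04 for *SULT2B1*, -1.20 for *UGT1A10* and -1.04 for *UGT8*. Among regulators it was 0.67 for *EPAS1*, 0.56 for *HNF4A*, 1.41 for *NR1I2* and 0.56 for *NFE2L2*. The *NFE2L2* difference was lost without any 1 of the siBACH1 libraries, sgBACH1 replicate 1 or sgCont replicate 3 (0.0554 to 0.0796). *EPAS1* fell by 0.28 in siBACH1 and rose by 0.40 in sgBACH1 (edgeR adjusted p = 0.0264 and 0.00196), and its siRNA call was lost without any 1 of the siBACH1 libraries or without siCont replicate 3 (0.0707 to 0.121) and with no filter beyond 1 count (0.0937).

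Among membrane anchors and partners the difference was -0.92 for *CAV1*, 0.43 for *MYO5B*, 0.61 for *NHERF1*, -0.68 for *NHERF2*, 1.07 for *RDX* and -0.78 for *STX3*. The *MYO5B* difference (edgeR adjusted p = 0.0345) was lost without any 1 of the siBACH1 libraries, siCont replicate 3, sgBACH1 replicate 1 or 3, or sgCont replicate 2 (0.0565 to 0.0937), and with no filter beyond 1 count (0.136). Among uptake carriers it was 1.15 for *SLC22A18*, 0.87 for *SLC22A3*, -1.03 for *SLC29A2*, 2.41 for *SLCO2B1* and -0.61 for *SLCO3A1*.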

How the results depend on the processing

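No exporter and no named gene called in a comparison changed direction under any alternative. *ABCC2*, *ABCG2*, *ABCC1* and *ABCC5* in the siRNA experiment and *ABCC2* and *ABCG2* in the knockout passed in all 15 fits tried, *ABCC10* (siRNA) in 12 and *ABCC4* (knockout) in 6. *ABCC5* in the knockout passed with a minimum count of 30, with DESeq2 and with limma-voom (adjusted p = 0.0473, 0.0419 and 0.0433). Leaving out 1 library moved the genes called in the siRNA experiment between 2002 and 5121, with 5121 without siCont replicate 2. Without siBACH1 replicate 1, 2 or 3 they numbered 2002, 2078 and 2096. The exporters called for the difference numbered 3 to 5 and were 3 without siBACH1 replicate 1, siBACH1 replicate 2, siCont replicate 1 or sgCont replicate 3. They numbered 4 to 5 in the siRNA experiment and 2 to 4 in the knockout. Deviations of same-numbered replicates correlated at 0.02 to 0.06 in the siRNA experiment, above those of unlike numbers (-0.05 to 0.01). In the knockout they correlated at -0.02 to 0.05, against -0.06 to 0.03. All these values are small and do not settle whether the numbers pair the libraries, and the main fits left pairing out. With the replicate block 3196 genes and 5 exporters were called for the siRNA, 3530 and 2 for the knockout and 3513 and 4 for the difference, where *ABCC4* was lost (adjusted p = 0.0619 in the knockout and 0.0555 for the difference). Of the other genes named, *EPAS1* and *NR3C1* were not called for the siRNA with the block (0.0633 and 0.0541), nor *ABCA7* and *MYO5B* for the difference (0.0575 and 0.0560). Depth limits *ABCB1* and *ABCC4*, which had at most 12 and 273 counts in a group of 3.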
